A study of Mus musculus with 15 samples.

Results

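Complement is a system of blood and tissue proteins that marks microbes and dead cells for removal. C1q, a hexamer built from A, B and C chains, recognises bound antibody or altered surfaces and starts the classical pathway, in which C4 and C2 are cleaved to form an enzyme that splits C3. Factor B makes the corresponding enzyme of the alternative pathway, C1 inhibitor (gene Serping1) blocks the first proteases, and fragments of C3 tag surfaces or signal through receptors such as C3ar1. The liver makes much of the complement of plasma, whereas C1q comes mainly from macrophages and dendritic cells.

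The 9 complement genes C1qa, C1qb, C1qc, C2, C3, C4b, Cfb, Serping1 and C3ar1 were taken by name from the 39179 genes of the count tables, and each matched 1 Ensembl gene. The tissue was the submandibular gland, a major salivary gland, of male adult C57BL/6 mice, with 15 RNA-seq libraries, 3 in each of 5 groups. Of the irradiated groups, all collected 7 days after local irradiation, IR+Shh and IR+Gli1 had received Shh, the secreted ligand of the Hedgehog pathway, or Gli1, a transcription factor at its end, by transfer into the gland, IR+GFP had received green fluorescent protein in the same way, and IR had received no gene. NT glands were untreated, and NT and IR mice are given as wild type. The vector, its dose and the cells that took it up are not given in the labels, nor is it said whether libraries came from separate animals, so a p-value here speaks for the spread between samples only, which may be technical.

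Within every group, 1 pair of libraries agreed more closely than sampling noise alone, which would give a mean chi-square per gene of about 1. These near-identical pairs had 0.215 to 0.337, against 22.0 to 223 in the 10 other pairs, and each was counted as 1 sample. Whether the libraries of a pair share reads was not tested. The 10 samples that remained, 2 per group, are IR+Shh 1-3 and 2, IR+Gli1 1-2 and 3, IR+GFP 1-2 and 3, IR 1-2 and 3, and NT 2-3 and 1, and values are given below in that order, with the combined pair first. Levels are CPM, read counts relative to library size, after TMM scaling, differences are log2 fold changes with their standard error, and a gene passed where its adjusted p (edgeR quasi-likelihood test, Benjamini-Hochberg over all genes tested) was under 0.05. Libraries held 18205941 to 41064723 gene reads. TMM factors were 1.72 and 1.31 in IR+Gli1 and 0.865 to 0.994 in the other samples, and reads with several alignments were 8.22% in IR+GFP 3 and 7.53% in IR+Gli1 3, against 2.89% to 4.79% elsewhere. Muc19, a mucin gene of the adjoining sublingual gland, was at 1370.3 CPM in NT 2-3 and 21.6 CPM in IR+GFP 1-2, against 0.079 to 0.369 CPM in the other 8 samples. Genes of acinar cells and of granular convoluted tubules, which define this gland, were present in every sample, with summed levels of 1446 to 2487 CPM and 25303 to 178132 CPM. Mouse Gli1 was at 2.69 and 4.24 CPM in IR+Shh, 0.54 and 0.67 CPM in IR+Gli1, against 0.77 and 0.55 CPM in IR+GFP, and mouse Shh had 0 reads in all 15 libraries. The species of the transferred genes is not given, so these reads do not check the labels.

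The 3 C1q genes lie next to each other on chromosome 4 (136880129 to 136898803, GRCm38, minus strand), within 18.7 kb. C4b, Cfb and C2 lie within 170 kb on chromosome 17 (34728380 to 34898265, minus strand), with 85 bases between Cfb and C2. C3 is elsewhere on chromosome 17 (57203970 to 57228136), Serping1 on chromosome 2 (84765387 to 84775444) and C3ar1 on chromosome 6 (122847138 to 122856161). Sequence before the transcription start was at hand for 4 of the 9 genes (RefSeq, GRCm38.p6), and it is shown for 3 that differed between groups to different extents: C1qb, a recognition chain, C3, the central component, and C3ar1, the receptor. Letters run 5′ to 3′ on the minus strand and end before the annotated gene, and capitals mark the only match to the motifs searched.
C1qb, chr4:136886201-136886450: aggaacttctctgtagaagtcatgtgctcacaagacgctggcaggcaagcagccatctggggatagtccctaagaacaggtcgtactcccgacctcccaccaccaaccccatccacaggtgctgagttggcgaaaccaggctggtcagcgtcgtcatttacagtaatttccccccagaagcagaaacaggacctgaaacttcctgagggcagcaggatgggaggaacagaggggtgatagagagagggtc
C3, chr17:57228137-57228386: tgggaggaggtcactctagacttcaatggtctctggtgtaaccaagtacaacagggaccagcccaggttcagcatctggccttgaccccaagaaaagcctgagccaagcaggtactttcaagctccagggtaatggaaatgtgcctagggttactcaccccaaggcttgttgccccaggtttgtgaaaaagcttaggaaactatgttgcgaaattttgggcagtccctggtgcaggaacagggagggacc
C3ar1, chr6:122856162-122856407: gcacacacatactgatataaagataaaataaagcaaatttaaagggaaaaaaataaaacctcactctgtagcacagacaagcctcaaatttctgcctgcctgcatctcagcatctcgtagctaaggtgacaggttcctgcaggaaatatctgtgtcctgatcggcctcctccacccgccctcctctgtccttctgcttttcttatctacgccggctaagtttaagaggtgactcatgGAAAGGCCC
The motifs, searched on both strands in the 250 bases before the RefSeq start, bases inside the annotated gene that are not printed here included, were the core of the interferon-stimulated response element (GAAANNGAA) and an NF-kB site (GGGNNTTTC). The C3ar1 window held 1 NF-kB match, on the reverse strand and beginning 13 bases before the start, and no other match was present in the 4 windows, that of C1qc included. Of 32851 mouse windows of the same length, 7.13% held the first motif and 3.72% the second.

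The first question was whether Gli1 transfer changed complement expression in the irradiated gland, with IR+GFP as the control for gene transfer. In IR+Gli1 all 8 complement genes that could be tested rose, by 2.54-fold to 8.70-fold (median log2 2.17, against 0.01 over all genes tested), while 8.23% of the 14300 genes tested rose in this comparison. The central component C3 had the highest fold, followed by C3ar1, C4b and C2, and the 3 C1q genes had the lowest. The ninth gene, Cfb, had too few reads for the test, with most of them in IR+Gli1. Samples of IR+Gli1 and IR+GFP did not overlap in any of the 9 genes. With 2 samples per group this is a weak criterion. The share of all genes without overlap was not counted, for this comparison or for those below.

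**Figure D1:**
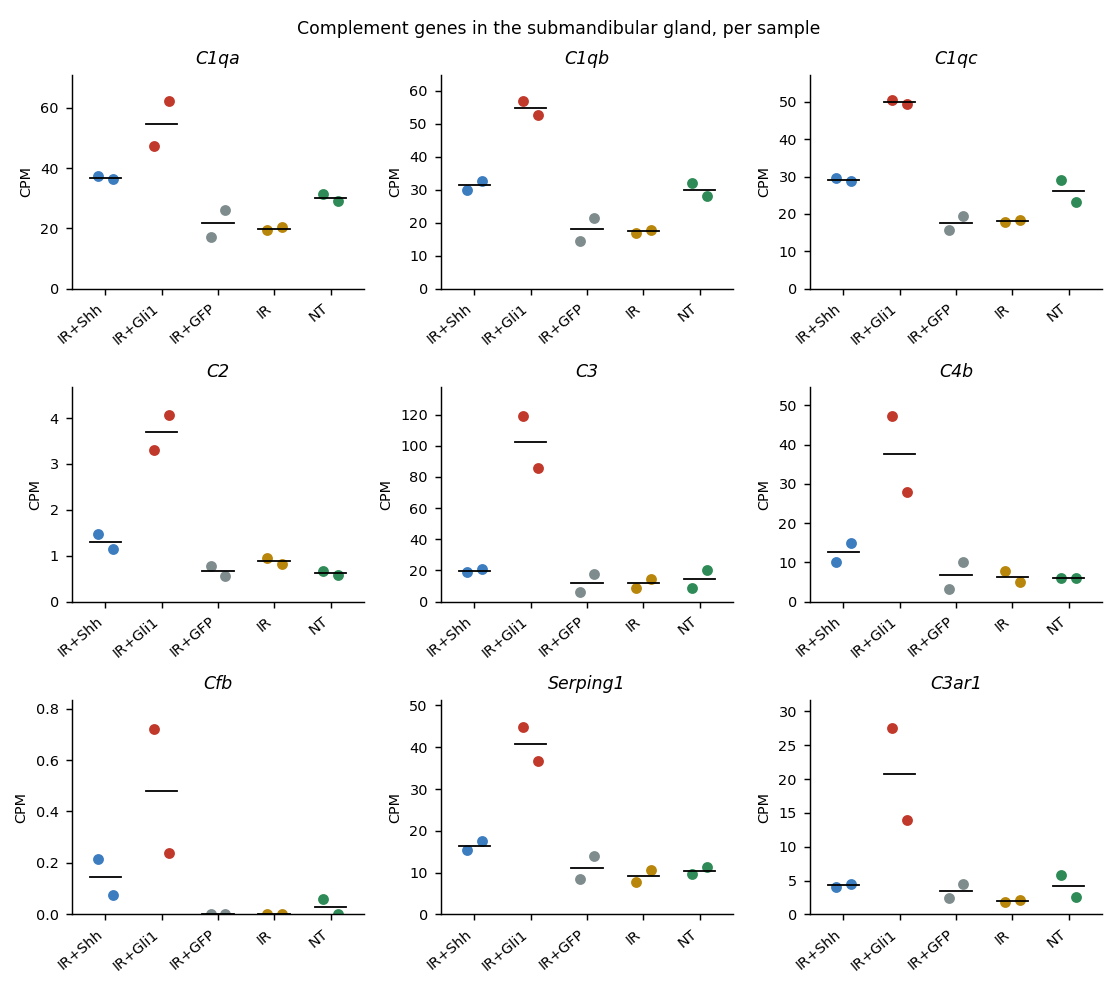
Level of each complement gene in CPM (read counts relative to library size, linear axis from 0) in IR+Shh, IR+Gli1, IR+GFP, IR and NT. Points are samples (2 per group, the combined pair on the left except in NT) and lines are means; in all 9 genes both IR+Gli1 samples lie above the samples of the other groups, and single Cfb reads in combined pairs of IR and IR+GFP are rounded to 0.

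Recognition chains come first. C1qa was at 37.5 and 36.2 CPM in IR+Shh, 47.2 and 62.3 in IR+Gli1, 17.1 and 26.1 in IR+GFP, 19.5 and 20.3 in IR, and 28.9 and 31.4 CPM in NT. C1qb was at 29.8 and 32.7 CPM in IR+Shh, 56.9 and 52.5 in IR+Gli1, 14.6 and 21.4 in IR+GFP, 16.9 and 17.8 in IR, and 27.97 and 32.0 CPM in NT. C1qc was at 29.6 and 28.7 CPM in IR+Shh, 50.4 and 49.5 in IR+Gli1, 15.8 and 19.5 in IR+GFP, 17.7 and 18.4 in IR, and 23.1 and 29.2 CPM in NT. For each chain IR+Gli1 was highest, IR+GFP and IR were lowest and overlapped each other, and IR+Shh and NT lay between. Against IR+GFP, C1qa rose 2.54-fold in IR+Gli1 (log2 1.35 ± 0.19, adjusted p = 0.0045), C1qb 3.06-fold (1.61 ± 0.16, adjusted p = 0.00164) and C1qc 2.84-fold (1.51 ± 0.14, adjusted p = 0.0013).

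The 3 chains kept similar proportions to each other. Per kilobase of exon, the level of C1qc was 0.466 to 0.610 of that of C1qb over the 10 samples. The level of C1qa was 0.869 to 1.31 of that of C1qb. These ratios depend on exon lengths that join all annotated transcripts, 1931 bases for C1qc and 1088 for C1qb. In CPM, C1qc and C1qb lay closer together. Both ends of the C1qa range came from irradiated glands with gene transfer, at 0.869 in IR+Gli1 1-2 and 1.31 in IR+Shh 1-3, and the other IR+Gli1 sample was at 1.24. Of all pairs among the 8 genes, C1qb and C1qc had the most similar pattern over the 10 samples, with a root mean square difference of 0.12 between their centred log2 levels, and C1qa and C3 the least similar, at 0.87.

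Next are the components that the first proteases cleave. C4b, the mouse C4, was at 10.01 and 15.04 CPM in IR+Shh, 47.4 and 28.01 in IR+Gli1, 3.28 and 10.1 in IR+GFP, 7.88 and 4.87 in IR, and 6.02 and 6.07 CPM in NT. C2, which supplies the protease of the classical C3-splitting enzyme, was at 1.47 and 1.14 CPM in IR+Shh, 3.31 and 4.07 in IR+Gli1, 0.768 and 0.554 in IR+GFP, 0.951 and 0.811 in IR, and 0.587 and 0.667 CPM in NT. IR+Gli1 was far above the other groups in both, and the spread of C4b within IR+Gli1 and within IR+GFP was wide. C4b rose 5.78-fold in IR+Gli1 against IR+GFP (log2 2.53 ± 0.54, adjusted p = 0.0269) and C2 5.47-fold (2.45 ± 0.31, adjusted p = 0.003). C4a, a near copy of C4b with which reads can be shared, had 144 reads in all libraries together, against 8243 for C4b.

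C3, whose cleavage is the step on which the pathways converge, was at 18.7 and 20.6 CPM in IR+Shh, 119 and 85.9 in IR+Gli1, 6.27 and 17.8 in IR+GFP, 9.005 and 14.4 in IR, and 20.2 and 8.89 CPM in NT. Both IR+Gli1 samples stood well apart, and the samples of IR+GFP, IR and NT overlapped. C3 rose 8.70-fold in IR+Gli1 against IR+GFP (log2 3.12 ± 0.60, adjusted p = 0.0227). Its level per kilobase was 0.511 and 0.279 of that of C1qa in IR+Gli1, and 0.0572 to 0.144 in the other 8 samples.

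Cfb, the gene of factor B, had 7, 2 and 3 reads in IR+Shh libraries 1, 2 and 3, 47, 34 and 6 reads in IR+Gli1, 1, 0 and 0 reads in IR+GFP, 1, 0 and 0 reads in IR, and 2, 0 and 0 reads in NT. The few reads of the control groups leave the fold poorly defined. Taking the deeper library of each pair, IR+Gli1 had 53 reads and IR+GFP 1 read, a ratio of 26.2 relative to depth with an exact 95% interval of 4.51 to 1055 that covers counting error only. In the annotation used here, 79.5% of the exon bases of Cfb and 42.8% of those of C2 are shared with Gm20547, a gene model on the same strand that spans both. Gm20547 had 0 reads in all 15 libraries, and a read that fits more than 1 gene enters no gene's count, so both levels are understated by an amount not measured here.

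Serping1 and C3ar1 act after or against activation. Serping1, the gene of C1 inhibitor, was at 15.3 and 17.5 CPM in IR+Shh, 44.7 and 36.8 in IR+Gli1, 8.36 and 14.02 in IR+GFP, 7.85 and 10.60 in IR, and 11.2 and 9.56 CPM in NT. C3ar1, the receptor of the C3a fragment, found on macrophages and other myeloid cells, was at 4.12 and 4.42 CPM in IR+Shh, 27.5 and 13.98 in IR+Gli1, 2.47 and 4.49 in IR+GFP, 1.83 and 2.06 in IR, and 2.64 and 5.89 CPM in NT. The inhibitor rose 3.68-fold in IR+Gli1 against IR+GFP (log2 1.88 ± 0.24, adjusted p = 0.00389). The receptor rose 6.07-fold (2.60 ± 0.47, adjusted p = 0.0119), and its IR+Gli1 samples lay far apart.

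These calls rest on a spread shared by all groups: with IR+Gli1 and IR+GFP fitted alone, 0 of the 8 genes passed (adjusted p 0.0592 to 0.143). In that fit 1 gene of all tested passed, and this limit holds for the other gene lists below as well. With all groups fitted, all 8 genes passed with DESeq2 and with limma-voom. Calls over all genes also moved when a sample was left out, as the closing section gives. Without IR+GFP 1-2, 5 of these 8 passed and C3, C4b and C3ar1 did not (adjusted p 0.105, 0.104 and 0.119), and without IR+Gli1 1-2, C3 and C4b did not (adjusted p 0.14 and 0.156). Without IR+GFP 3 and IR+Gli1 3, the libraries with more reads of several alignments, 1 sample remained in each of these groups. The log2 differences of the 8 genes were then 1.45 to 4.24, with no spread of the compared groups themselves.

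**Figure D2:**
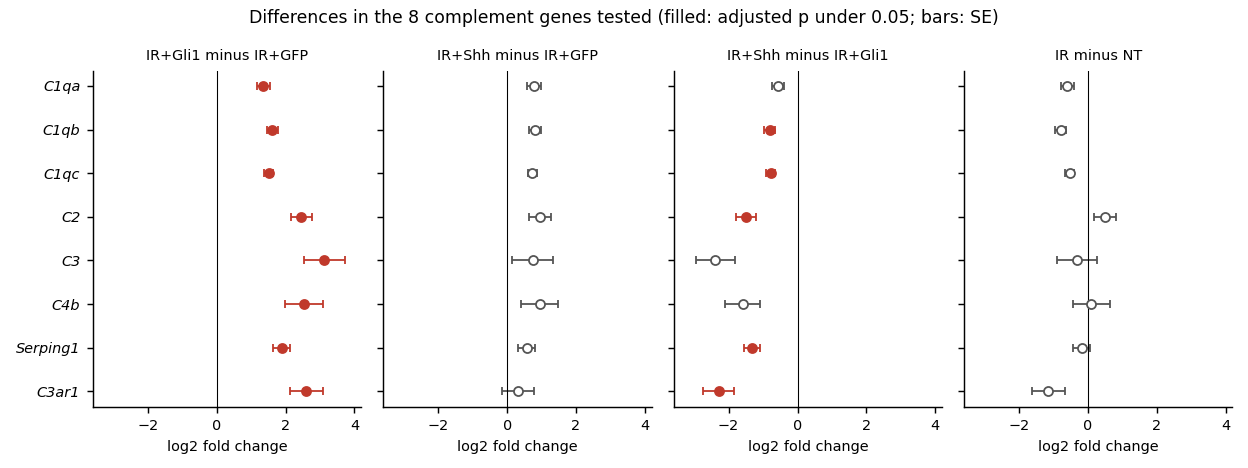
Log2 fold change of the 8 complement genes tested (points) with standard error (bars) in IR+Gli1 minus IR+GFP, IR+Shh minus IR+GFP, IR+Shh minus IR+Gli1, and IR minus NT; filled points passed an adjusted p of 0.05. All 8 genes lie right of 0 for IR+Gli1 minus IR+GFP, 5 are filled left of 0 for IR+Shh minus IR+Gli1, and none is filled for IR+Shh minus IR+GFP or IR minus NT.

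Against untreated glands, the same 8 genes were higher in IR+Gli1 (median log2 2.13, against 0.03 over all genes; 12.3% of genes tested rose). NT samples stood in for a gland without irradiation or transfer, so both differ between the groups. The C1q genes differed least, at 1.81-fold for C1qa (log2 0.86 ± 0.19, adjusted p = 0.0114), 1.82-fold for C1qb (0.87 ± 0.16, adjusted p = 0.00514) and 1.91-fold for C1qc (0.93 ± 0.13, adjusted p = 0.00185). C3 was 7.10-fold higher (2.83 ± 0.58, adjusted p = 0.018), C4b 6.26-fold (2.65 ± 0.53, adjusted p = 0.0142) and C2 5.82-fold (2.54 ± 0.30, adjusted p = 0.000905). C3ar1 was 4.85-fold higher (2.28 ± 0.45, adjusted p = 0.00994) and Serping1 3.93-fold (1.97 ± 0.24, adjusted p = 0.00124). Without NT 1 or without IR+Gli1 1-2, C3 and C4b did not pass, and without NT 2-3, the sample with Muc19, C1qa and C4b did not (adjusted p 0.0671 and 0.0777; log2 0.77 to 3.52 over the 8 genes). With the 2 groups alone C3ar1 did not pass (adjusted p = 0.0763). IR+Gli1 against IR+GFP and against NT share the IR+Gli1 samples.

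The second question was whether Shh transfer did the same. Against IR+GFP none of the 8 genes passed, and neither did any other gene (0% of genes tested, with 872 of 14300 at an unadjusted p under 0.05). The median log2 of the 8 was 0.76, against 0.001 over all genes, and all 8 were positive. The C1q genes were at 1.71-fold, 1.75-fold and 1.66-fold of IR+GFP for C1qa, C1qb and C1qc (log2 0.78 ± 0.19, 0.81 ± 0.16 and 0.73 ± 0.14; adjusted p = 0.647, 0.436 and 0.436), and neither IR+Shh sample overlapped IR+GFP. C2 was at 1.94-fold (0.96 ± 0.32, adjusted p = 0.808), C4b at 1.92-fold (0.94 ± 0.54), C3 at 1.67-fold (0.74 ± 0.59), Serping1 at 1.48-fold (0.57 ± 0.24) and C3ar1 at 1.25-fold (0.32 ± 0.48), with adjusted p of 0.814 to 0.92 for these 4. The 3 C1q genes, C2 and Serping1 had an unadjusted p under 0.05. Samples of IR+Shh and IR+GFP did not overlap in C2, C3 and Serping1 either, while they did in C4b and C3ar1. DESeq2 called C1qb and C1qc, and limma-voom called 0. For Cfb, 9 reads in the deeper libraries of IR+Shh against 1 read in IR+GFP gave a ratio of 7.25 with an exact 95% interval of 1.00 to 318.

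Set directly against each other, IR+Shh was lower than IR+Gli1 in 5 of the 8 genes, and 4.99% of genes tested were lower. C3ar1 fell by 2.28 ± 0.45 on the log2 scale (4.87-fold lower, adjusted p = 0.0277), C2 by 1.49 ± 0.28 (2.81-fold lower, adjusted p = 0.02) and Serping1 by 1.31 ± 0.23 (2.48-fold lower, adjusted p = 0.02). C1qb fell by 0.81 ± 0.16 (1.75-fold lower, adjusted p = 0.0216) and C1qc by 0.78 ± 0.13 (1.71-fold lower, adjusted p = 0.0158). The other 3 missed the threshold with samples that did not overlap: C3 had a log2 difference of -2.38 ± 0.57 (adjusted p = 0.059), C4b of -1.59 ± 0.51 (adjusted p = 0.108) and C1qa of -0.57 ± 0.19 (adjusted p = 0.0944). Cfb had 9 reads in IR+Shh and 53 in IR+Gli1, a ratio of 0.276 with an exact 95% interval of 0.1198 to 0.565. The call of each of the 5 genes was lost when either IR+Shh sample or IR+Gli1 1-2 was left out, and those of C1qb and C3ar1 also without either IR sample. With these 2 groups fitted alone C3 was the 1 gene that passed (adjusted p = 0.034).

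IR+Shh and NT were closer. None of the 8 genes passed (median log2 0.37, against -0.003 over all genes), and 2.26% of genes tested passed in either direction. An unadjusted p under 0.05 was found in 2 of 8, C2 and Serping1, and in 2972 of the 14300 genes tested. C2 was 2.07-fold of NT (log2 1.05 ± 0.30, adjusted p = 0.101), C4b 2.08-fold (1.05 ± 0.53, adjusted p = 0.315) and Serping1 1.58-fold (0.66 ± 0.24, adjusted p = 0.167). The C1q genes had log2 differences of 0.06 ± 0.16 to 0.29 ± 0.19. C3 again depended on NT, at log2 1.14 without NT 2-3 and -0.035 without NT 1, and C3ar1 likewise, at -0.46 and 0.69. DESeq2 and limma-voom also called 0 of the 8.

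The third question was what irradiation alone did. In IR against NT none of the 8 genes passed, while 0.678% of genes tested did. The C1q genes were lower in both IR samples than in both NT samples: C1qa had a log2 difference of -0.60 ± 0.19 (1.52-fold lower, adjusted p = 0.169), C1qb of -0.79 ± 0.16 (1.73-fold lower, adjusted p = 0.0677) and C1qc of -0.53 ± 0.13 (1.45-fold lower, adjusted p = 0.107). C3ar1 was also lower without overlap (-1.15 ± 0.49, adjusted p = 0.278), and C2 was the 1 gene higher without overlap (0.49 ± 0.31, adjusted p = 0.452). C3, C4b and Serping1 overlapped, with log2 differences of -0.32 ± 0.58, 0.10 ± 0.54 and -0.18 ± 0.25. Unadjusted p was under 0.05 in 4 of 8 genes, the 3 C1q genes and C3ar1, and in 2504 of the 14300 genes tested. DESeq2 called C1qb (adjusted p = 0.00238) and C1qc (adjusted p = 0.0492) while limma-voom called 0. The C1q genes were also lower with either NT sample left out, at log2 -0.66 to -0.89 without NT 2-3 and -0.35 to -0.69 without NT 1, and did not pass. C3 depended on which NT sample was kept, at log2 0.38 without NT 2-3 and -0.80 without NT 1. C1qb also passed when IR+GFP 1-2, IR+GFP 3 or IR+Gli1 3 was left out (adjusted p 0.0332 to 0.0482).

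Transfer of green fluorescent protein made no detectable difference to the 8 genes at this depth and spread. In IR+GFP against IR none passed, 0 had an unadjusted p under 0.05, and 0% of genes tested passed (298 of 14300 at an unadjusted p under 0.05), and DESeq2 and limma-voom called 0 of the 8. The median log2 difference of the 8 was 0.03, and single genes lay between -0.40 ± 0.33 for C2 and 0.82 ± 0.51 for C3ar1. The members differed more between the IR+GFP samples than between the IR samples, with C3 at 6.27 and 17.8 CPM and C4b at 3.28 and 10.1 CPM in IR+GFP, against 9.005 and 14.4 CPM and 7.88 and 4.87 CPM in IR.

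The rest of the pathway was read from a list of 45 other complement genes, of which 42 had reads and 25 could be tested. In IR+Gli1 against IR+GFP 9 of the 25 rose, none fell and the median log2 was 0.06. These calls rest on IR+GFP 1-2, without which 1 of 29 tested rose, and with the 2 groups alone 0 of 21 passed. Without IR+Gli1 3, 10 of 28 rose and 3 fell. The proteases that C1q activates rose: C1ra 6.25-fold (35.6 and 30.9 CPM in IR+Gli1, against 3.24 and 7.63 CPM in IR+GFP; log2 2.64 ± 0.34, adjusted p = 0.00408) and C1s1 5.10-fold (log2 2.35 ± 0.31, adjusted p = 0.0041), while C1s2 had a log2 difference of 0.36 ± 0.40. Cfp, the gene of properdin, which stabilises the alternative pathway enzyme, rose with a log2 change of 2.48 ± 0.36 (adjusted p = 0.00461). Of 9 receptor genes 7 were tested and 5 rose: the subunits of complement receptors 3 and 4, Itgb2 (3.002 ± 0.42), Itgam (3.17 ± 0.47) and Itgax (1.85 ± 0.34), the C5a receptor C5ar1 (2.61 ± 0.41), and Cd93 (1.39 ± 0.39).

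Among 13 regulators, 9 could be tested and Clu rose. Clu, whose product clusterin holds back the terminal complex, was at 993 and 347 CPM in IR+Gli1, against 22.0 and 30.7 CPM in IR+GFP (log2 4.67 ± 0.56, adjusted p = 0.00556). The membrane regulators Cd55, Cd59a, Cd46 and Cr1l did not pass, with log2 differences of -0.01 ± 0.33, -0.37 ± 0.20, 0.25 ± 0.59 and 0.22 ± 0.12. Cd59b (-0.62 ± 0.45) and Csmd1 (-1.28 ± 0.46, adjusted p = 0.0957), also membrane regulators, were lower and did not pass either. Scaling by total counts alone, which moves the median of all genes in this comparison to a log2 of 0.79, turns Cd55 and Cd59a positive (0.77 and 0.38), while the 9 rises and those of the 8 genes remain positive and larger. Terminal components were nearly absent: of Hc, C6, C7, C8a, C8b, C8g and C9 only C8g could be tested, with a log2 difference of -0.25 ± 0.34, and each of the other 6 had at most 43 reads in all libraries together. Lectin pathway genes were also sparse, with 2 of 9 tested and neither passing (Fcna -2.71 ± 0.85, adjusted p = 0.0629, and Colec12 -0.19 ± 0.32).

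**Figure D3:**
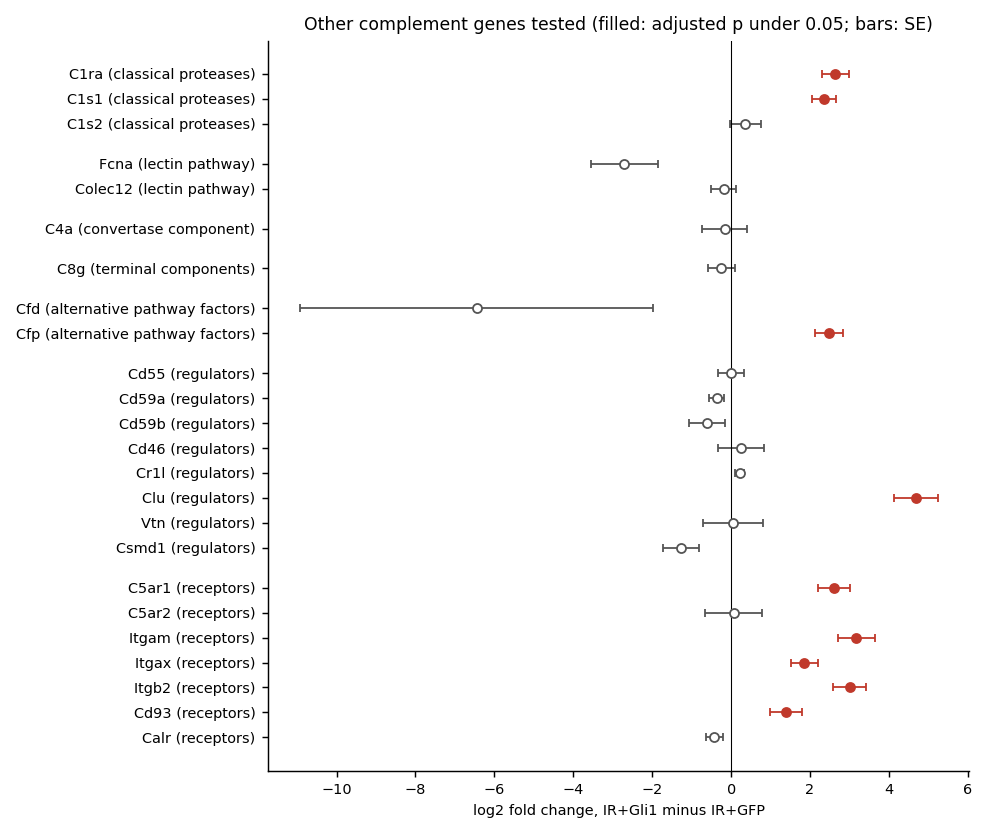
Log2 fold change in IR+Gli1 minus IR+GFP with standard error for 24 of the 25 other complement genes that could be tested, grouped by role; filled points passed an adjusted p of 0.05. The classical proteases C1ra and C1s1, Cfp, Clu and 5 receptor genes are filled right of 0; Cfd has a wide error because its level differs between the samples of single groups.

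Against NT, 9 of the 25 were higher in IR+Gli1 and 2 were lower, while 11.4% of genes tested fell. Without NT 2-3 or without IR+Gli1 1-2, 7 were higher and 1 was lower, and without IR+Gli1 3, 5 were lower. The 2 lower genes were Calr (log2 -1.10 ± 0.22, adjusted p = 0.00716), a chaperone that can also bind C1q at the cell surface, and Fcna, a ficolin of the lectin pathway (-2.95 ± 0.81, adjusted p = 0.0275). C1ra (3.02 ± 0.34), C5ar1 (3.15 ± 0.41), C1s1 (2.42 ± 0.31), Clu (4.19 ± 0.54), Itgax (1.92 ± 0.33) and Cfp (1.73 ± 0.33) were the 6 higher genes with the smallest adjusted p (0.00109 to 0.00675). In IR+Shh against IR+Gli1, 7 of the 25 fell: Clu by 4.55 ± 0.55 (adjusted p = 0.013), C1ra by 2.15 ± 0.32 (adjusted p = 0.0147), C1s1 by 1.88 ± 0.30, C5ar1 by 2.24 ± 0.39, Itgam by 2.23 ± 0.43, Itgb2 by 2.10 ± 0.39 and Itgax by 1.32 ± 0.33 on the log2 scale. None passed without either IR+Shh sample, 2 of 27 fell without IR+Gli1 1-2 and 4 of 29 without either IR sample, 11 of 25 fell with total-count scaling, and 1 of 21 with the 2 groups alone. In the other 4 comparisons none of the 25 passed in the edgeR test, with 0 to 3 at an unadjusted p under 0.05 in each. DESeq2 called 2 of them in IR against NT and 1 in IR+Shh against NT, and limma-voom called 0 in all 4.

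Several cell types could carry this RNA, and in whole tissue fewer cells of a type and less RNA per cell cannot be told apart. Of 16 macrophage markers, all with reads, 7 rose in IR+Gli1 against IR+GFP (median log2 1.07), and their summed level was 349 and 269 CPM in IR+Gli1, against 148 and 221 CPM in IR+GFP. Without IR+GFP 1-2, 2 of the 16 rose, 12 did with total-count scaling and 0 with the 2 groups alone. The summed C1q chains were at 154 and 164 CPM in IR+Gli1, against 47.5 and 67.0 CPM in IR+GFP. Monocyte and neutrophil markers summed to 179 and 49.9 CPM in IR+Gli1, against 3.41 and 6.77 CPM in IR+GFP, with 4 of the 5 tested higher. The neutrophil marker Ly6g had no reads in any library, and Retnlg, Cxcr2 and Mpo reached at most 0.18 CPM in any sample. In IR+Gli1, S100a8 was at 3.55 and 0.356 CPM and S100a9 at 2.38 and 0.237 CPM, against 0 and 0 CPM in IR+GFP for both. Csf3r was at 6.52 and 2.65 CPM in IR+Gli1, against 0.341 and 0.738 CPM in IR+GFP. T and NK cell markers summed to 53.0 and 23.9 CPM in IR+Gli1, against 2.30 and 5.72 CPM in IR+GFP, with 4 of 7 higher. None of either list passed without IR+GFP 1-2 or with the 2 groups alone, 2 monocyte and neutrophil markers rose without IR+GFP 3, and 2 T and NK cell markers rose without IR+Gli1 1-2 and 7 with total-count scaling. The part of these cells in the complement values was not tested.

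In IR the macrophage sum was 199.8 and 185 CPM, against 248 and 246 CPM in NT, and none of the 16 markers passed. Dendritic cell markers were low, summing to 1.21 to 2.71 CPM over the 10 samples, with 3 of 6 tested and 1 lower in IR+Gli1 than in IR+GFP (median log2 -1.82), a call lost without IR+GFP 1-2 or IR+Gli1 1-2. B and plasma cell markers summed to 0.213 to 3.09 CPM, with 1 of 5 tested and not called (log2 0.68). In IR against NT none of these passed either, with a median log2 of -0.28 for macrophage markers, -0.42 for dendritic cell markers and -1.60 for the 1 B and plasma cell marker tested. The 5 hepatocyte markers summed to 6.63 to 11.5 CPM over all 10 samples, with 1 tested and not called. None of 6 fibroblast markers passed in IR+Gli1 against IR+GFP (sums of 147 and 196 CPM, against 162 and 214 CPM), though 2 fell without IR+Gli1 3 and 2 rose with total-count scaling. Of 5 endothelial markers, 1 rose (41.1 and 34.0 CPM, against 21.6 and 29.3 CPM; median log2 0.61), or 5 with total-count scaling and 0 when IR+GFP 1-2, an IR+Gli1 sample or an IR+Shh sample was left out. Genes of the interferon response rose in 14 of 14 cases in IR+Gli1 against IR+GFP (median log2 4.61), summing to 1733 and 831 CPM, against 109 and 138 CPM. Of the 14, 4 rose without IR+GFP 1-2, 9 without IR+GFP 3 and 0 with the 2 groups alone. IR+Shh had sums of 240 and 170 CPM for these interferon genes, 220 and 251 CPM for macrophage markers and 11.3 and 7.93 CPM for monocyte and neutrophil markers. Granular tubule genes fell in 5 of 6 cases in IR+Gli1 against IR+GFP, in 2 without IR+GFP 3 and in none without IR+GFP 1-2. Whether these shifts bear on the complement genes was not tested.

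**Figure D4:**
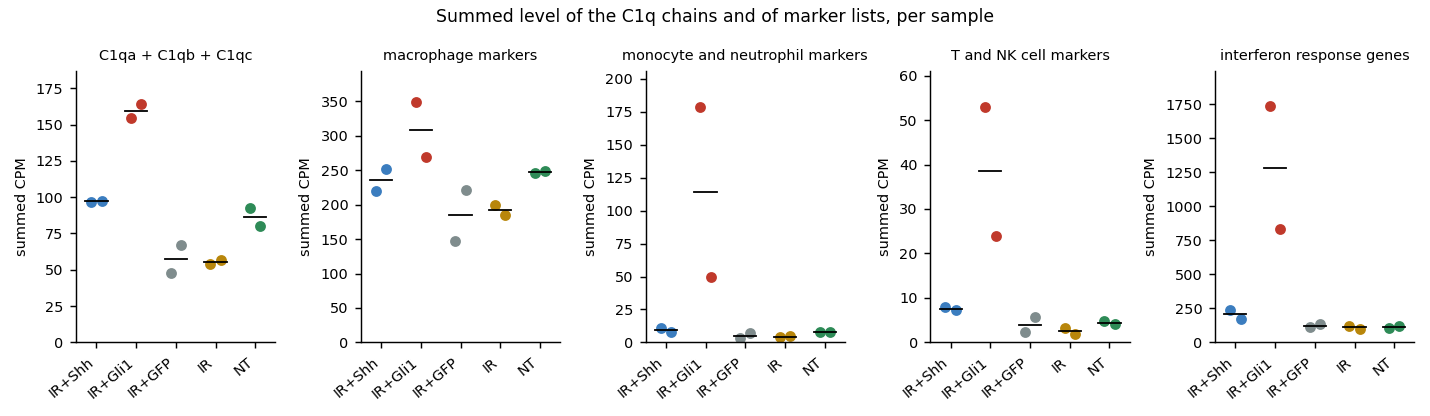
Summed level (CPM, linear axis from 0) of the C1q chains, of macrophage, monocyte and neutrophil, and T and NK cell markers, and of interferon response genes in IR+Shh, IR+Gli1, IR+GFP, IR and NT; points are samples (2 per group) and lines are means. The summed C1q chains are at 154 and 164 CPM in IR+Gli1, against 47.5 and 67.0 CPM in IR+GFP, and the monocyte and neutrophil sums of IR+Gli1 lie far apart at 179 and 49.9 CPM.

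Gene patterns nearest to each complement gene were sought among 8865 genes with a mean of at least 5 CPM, as the root mean square difference of log2 levels centred on each gene's mean over the 10 samples. The nearest to C1qa were Fcgr3 (0.21), an Fc receptor subunit, and Mcm6 (0.22), a subunit of the replicative helicase. For C1qb they were Mcm6 (0.17) and Ly86 (0.18), and for C1qc Mcm6 (0.15) and Cybb (0.16), the catalytic subunit of the phagocyte oxidase. The median difference over all genes compared was 0.59 to 0.66 for the C1q genes. C2 was nearest to the kinase gene Pdk4 (0.27) and to Stat2 (0.27), a transcription factor of interferon signalling.

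C3 was nearest to H2-T23 (0.37), a class Ib histocompatibility gene, and to the antiviral membrane protein gene Ifitm3 (0.38). C4b was nearest to the class I genes H2-D1 (0.36) and H2-K1 (0.36), which share reads with near copies in mouse. Serping1 was nearest to Trim12a (0.21) and Nfkbia (0.23), the gene of an NF-kB inhibitor, and C3ar1 to the leukocyte genes Cd53 (0.27) and Fcer1g (0.29). The median differences over all genes compared were 0.91 for C2, 1.31 for C3, 1.13 for C4b, 0.84 for Serping1 and 1.18 for C3ar1. These distances describe 10 samples that share groups and, within a sample, a library.

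Ordered by level per kilobase of exon not shared with other genes, C1qa and C1qb came first in IR+Gli1, at means of 52.7 and 50.3 CPM per kilobase, followed by C1qc at 25.8, C3 at 19.96, Serping1 at 17.5, C4b at 6.62, C3ar1 at 4.82, C2 at 1.80 and Cfb at 0.827. In IR+GFP the means were 20.8 for C1qa, 16.5 for C1qb, 9.13 for C1qc, 4.81 for Serping1, 2.34 for C3, 1.18 for C4b, 0.809 for C3ar1 and 0.321 for C2. The order depends on these exon lengths, which join all annotated transcripts. Within samples, C1qa was above C1qb in both IR+GFP samples, and in IR+Gli1 it was below C1qb in 1 sample and above it in the other. C3 was below Serping1 within both IR+GFP samples and above it within both IR+Gli1 samples, where the ranges of the 2 genes over samples overlapped.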

How the data were processed

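The submitters deposited raw read counts per Ensembl gene, 1 table for each of the 15 libraries, made from 1 ug of total RNA with a TruSeq kit per the labels. The submitters' processing notes name TopHat2 2.0.13, Bowtie 0.12.2, DESeq2 and HTSeq 0.10.0, and the builds mm10 and GRCm38. The annotation release, strand mode and DESeq2 version are not given in the sources used here. Each table's closing lines (reads given to no gene, 6.98% to 13.9%) were left out. Symbols came from GENCODE vM21 (GRCm38), for 96.2% of genes.

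Near-identical library pairs (mean chi-square per gene below 1, over genes with 20 or more reads) were replaced by their rounded mean. All 10 samples were fitted in edgeR 4.0.16 (R 4.3.3) with filterByExpr, TMM and robust quasi-likelihood tests, two-sided, with 5 residual degrees of freedom and no covariates. Alternatives used DESeq2 1.42.0, limma 3.58.1 and the settings listed in the closing section. The code was tested on simulated counts. The values of 1 regulator gene and 1 planned motif are not reported here. The named genes are the 9 members, passing genes of the other complement list by smallest adjusted p (up to 12 in IR+Gli1 with IR+GFP, up to 6 elsewhere), and the 2 nearest patterns per member. Other genes named outside these rules were chosen after their values were seen. They are Itgax in IR+Shh with IR+Gli1, Calr, Fcna, Muc19, single monocyte and neutrophil markers, and complement genes that did not pass. Members and lists were chosen with earlier results of these data known. Replicate numbers were not taken to pair libraries, and 3 of 30 same-numbered pairs deviated together (r over 0.1). With near-identical libraries in each group, this check cannot exclude pairing. Counting intervals are exact at 95%.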

Additional observations from a re-analysis of the deposited data

How the results depend on the processing

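Settings are DESeq2 size factors, upper-quartile or total-count scaling, no filter, a filter at 1 CPM in 2 samples, the deeper library of each pair, DESeq2, limma-voom, the compared groups alone, the 15 libraries apart, IR+GFP 3 and IR+Gli1 3 given a term or left out, and each sample left out in turn, when the lone sample is assumed to vary like the other groups. Over them, the 8 genes tested stayed higher in IR+Gli1 than in IR+GFP and NT and lower in IR+Shh than in IR+Gli1, in direction. The counts of those that passed moved more than 1.5 times as follows. For IR+Gli1 with IR+GFP, 8 passed, against 0 with the 2 groups alone and 5 to 9 with a sample left out (Cfb passes the filter in most of these fits). For IR+Shh with IR+Gli1, 5 passed, against 8 with total-count scaling, 8 with no filter, 1 with the 2 groups alone and 0 to 7 with a sample left out. For IR with NT, 0 passed, against 4 with no filter, 2 with the term, 2 with both libraries left out, 2 with DESeq2, 1 with the 2 groups alone and 0 to 1 with a sample left out. For IR+Shh with IR+GFP, 0 passed, against 6 with no filter, 1 with the term and 2 with DESeq2. For IR+Shh with NT, 0 passed, against 3 with no filter. The cause was not tested.

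Whether libraries of the same replicate number belong together could not be decided. Of the 15 libraries, 7 correlated best with their own number, a check limited by the near-identical libraries within each group. With 15 separate libraries and the replicate number as a block, 3 of the 8 passed in IR with NT, 4 in IR+Shh with IR+GFP, 8 in IR+Shh with IR+Gli1 and 2 in IR+Shh with NT, and without the block the numbers were also 3, 4, 8 and 2. Over all genes the block gave 4048 calls in IR with NT, 6495 in IR+Gli1 with IR+GFP, 433 in IR+Shh with IR+GFP, 6092 in IR+Shh with IR+Gli1, 7449 in IR+Gli1 with NT and 4340 in IR+Shh with NT. Without the block the 15 libraries gave 4154, 6518, 538, 6065, 7468 and 4447 in the same order, and 5 in IR+GFP with IR. These fits count near-identical libraries as independent.

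Calls over all genes numbered 97 in IR with NT, 0 in IR+GFP with IR, 1993 in IR+Gli1 with IR+GFP, 0 in IR+Shh with IR+GFP, 1109 in IR+Shh with IR+Gli1, 3389 in IR+Gli1 with NT and 323 in IR+Shh with NT. Total-count scaling gave 9749 in IR+Gli1 with IR+GFP (9660 higher and 89 lower, against 1177 and 816 with TMM), 8092 in IR+Shh with IR+Gli1 (84 higher and 8008 lower, against 395 and 714) and 9485 in IR+Gli1 with NT (9259 higher and 226 lower, against 1754 and 1635). In IR+Shh with NT it gave 236 (200 higher and 36 lower, against 194 and 129). It moved the median log2 of all genes to 0.79, -0.67, 0.79 and 0.11 in these comparisons, and to 0.15 in IR+Shh with IR+GFP. No filter gave 1242 in IR with NT, 210 in IR+GFP with IR, 435 in IR+Shh with IR+GFP, 2639 in IR+Shh with IR+Gli1 and 1663 in IR+Shh with NT. The term gave 182 in IR with NT, 2 in IR+Shh with IR+GFP and 553 in IR+Shh with NT, and leaving both libraries out gave 311, 2 and 757, and 2392 in IR+Shh with IR+Gli1. DESeq2 gave 479 in IR with NT, 8 in IR+GFP with IR, 34 in IR+Shh with IR+GFP and 822 in IR+Shh with NT. The groups alone gave 1 in IR+Gli1 with IR+GFP, 24 in IR+Shh with IR+GFP, 9 in IR+Shh with IR+Gli1 and 861 in IR+Gli1 with NT. With a sample left out the calls ranged over 9 to 538 in IR with NT, 0 to 1 in IR+GFP with IR, 91 to 2987 in IR+Gli1 with IR+GFP, 0 to 2286 in IR+Shh with IR+Gli1, 1978 to 3613 in IR+Gli1 with NT and 13 to 815 in IR+Shh with NT.

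Directions that turned belong to differences that had not passed. In IR+GFP with IR, the log2 difference turned to -0.044 (C1qb), -0.11 (C3) and -0.39 (C4b) with 15 libraries, to -0.00085 (C1qa), -0.047 (C1qb), -0.15 (C3) and -0.37 (C4b) with the block, and to -0.16 (C1qa), -0.063 (C1qb), -0.21 (C3) and -0.12 (C4b) with the term. With both libraries left out it was -0.22 (C1qa), -0.25 (C1qb), -0.88 (C3), -0.98 (C4b) and -0.13 (Serping1), and with limma-voom -0.0014 (C1qb), -0.16 (C3) and -0.29 (C4b). In IR+Shh with NT, C3ar1 (-0.0062) turned to 0.018 with upper-quartile scaling, 0.12 with total counts, 0.18 with 15 libraries, 0.21 with the block, 0.0014 with DESeq2, 0.073 with limma-voom and 0.0083 with the groups alone. With a sample left out, IR+GFP with IR ranged over -0.21 to 0.39 (C1qa), -0.25 to 0.30 (C1qb), -0.20 to 0.11 (C1qc), -0.89 to 0.62 (C3), -0.98 to 0.65 (C4b) and -0.13 to 0.61 (Serping1). IR with NT ranged over -0.80 to 0.38 (C3), -0.31 to 0.38 (C4b) and -0.41 to 0.029 (Serping1). IR+Shh with NT ranged over -0.036 to 0.16 (C1qb), -0.0043 to 0.33 (C1qc), -0.035 to 1.14 (C3) and -0.46 to 0.69 (C3ar1), and IR+Shh with IR+GFP over -0.071 to 0.79 (C3ar1).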
